A study of Caenorhabditis elegans with 12 samples.

Results

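Cytoplasmic-enriched RNA was set against RNA of whole animals in Caenorhabditis elegans, in 8 of the 12 libraries of the series. The tested libraries were cytoplasmic RNA of hrde-1(tm1200) and of N2, with 2 libraries each, and they were compared with whole RNA of hrde-1(tm1200) and of N2, again with 2 libraries each. N2 is the wild type strain of this nematode, and hrde-1(tm1200) is a mutant of the nuclear Argonaute gene hrde-1. All animals were young adult hermaphrodites kept at 23 C, and the 2 libraries of a group came from generation 3 and generation 4 at that temperature. The question was which transcribed regions take a larger or smaller part of the RNA outside the nuclei than of the RNA of the whole animal, whichever the genotype. Per the labels' protocols, ground worms were spun through a sucrose cushion, and the clear cushion layer was taken as cytoplasm. The fraction is therefore an enrichment from all tissues of the animal together. Ribosomal RNA was digested with RNase H and no selection for poly(A) tails was made, so precursors and unspliced RNA could be sequenced. Of the 100257 windows of 1000 bases in the deposited table, the 16182 with a mean coverage of at least 10 over these 8 libraries were compared. The windows nearest to this limit had means of 9.9975 and 9.9988 below it and 10.0 above it.

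In a eukaryotic cell a gene is transcribed in the nucleus, introns are spliced out there, and the mature messenger RNA is exported to the cytoplasm for translation. Introns, precursors and many small noncoding RNAs stay in the nucleus, so a cytoplasmic extract is known to be poorer in them than RNA of whole cells. HRDE-1 acts in the germline, where it carries small RNAs into the nucleus and directs silencing of transcription, with retrotransposons among its known targets. The X chromosome of this species is largely silent in the adult germline, and most of its transcripts are known to come from somatic tissues. Whole-animal RNA mixes all tissues, so a lower level in such RNA cannot tell fewer cells of a type from less RNA per cell.

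The cytoplasmic libraries were shallower than the whole RNA libraries. Taking the commonest step of a column as 1 read, cytoplasmic libraries held 520635 and 361857 read equivalents in hrde-1 and 191255 and 263402 in N2 (generation 3, then 4), against 652350 to 805479 in the 4 whole RNA libraries. At the lower limit of the comparison 1 read was worth 4.58 units of coverage in the shallowest library. Windows with a mean near 10 therefore rest on a few reads in cytoplasmic RNA. The 2 libraries of a group differed by a median of 0.417 in hrde-1 and 0.533 in N2 on the log2 scale in cytoplasmic RNA, against 0.287 in hrde-1 and 0.309 in N2 in whole RNA. Intervals of read equivalents cover counting error only. Windows carry the coordinates of the deposited table. No source used here names its build, so genes, exons, introns and marker genes of either compartment were not analysed here. Wherever 4 values of a fraction follow each other, their order is hrde-1 generation 3, hrde-1 generation 4, N2 generation 3 and N2 generation 4.

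Cytoplasmic RNA differed from whole RNA in both directions. With genotype as a covariate, 624 of the 16182 windows (3.86%) were higher in cytoplasmic RNA and 322 (1.99%) were lower, 5.85% in all (limma on log2(coverage + 1), two-sided, Benjamini-Hochberg adjusted over all windows tested, threshold 0.05). The higher windows differed by a median of 1.504 on this log2 scale, with a range of 0.51 to 2.55, and 536 of them differed by at least 1. The lower windows differed by a median of -1.27, with a range of -0.56 to -4.13, and 227 of them by at least 1 in size. Over all windows the median difference was -0.25, so most windows lay slightly lower in cytoplasmic RNA, and 4582 of the 16182 lay above 0. Within genotypes the median was -0.004 in hrde-1 and -0.44 in N2, so this shift was seen in N2. When all libraries were scaled to the same median, the median over both genotypes became -0.06, a shift of 0.18. The share of higher windows among the calls was 66.0% as deposited and 77.9% after that scaling. Lower windows outnumbered higher ones in other settings, where this share was 38.3% without a filter on low windows, 44.5% with all 12 libraries in 1 fit, 46.2% in the generation 4 libraries alone and 48.0% when the generation 3 library of N2 cytoplasm was left out.

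The called windows also stood apart library by library. In 622 of the 624 higher windows all 4 cytoplasmic values lay above all 4 whole RNA values, which 5.21% of all tested windows did. In 311 of the 322 lower windows all 4 cytoplasmic values lay below all 4 whole RNA values, which 8.00% of all tested windows did. When each cytoplasmic library was set against the whole RNA library of its own genotype and generation, all 624 higher windows were higher in each of the 4 sets, and 320 of the 322 lower windows were lower in each. The windows were called on these same 8 libraries. These counts therefore describe the calls and are not independent evidence for them.

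**Figure D1:**
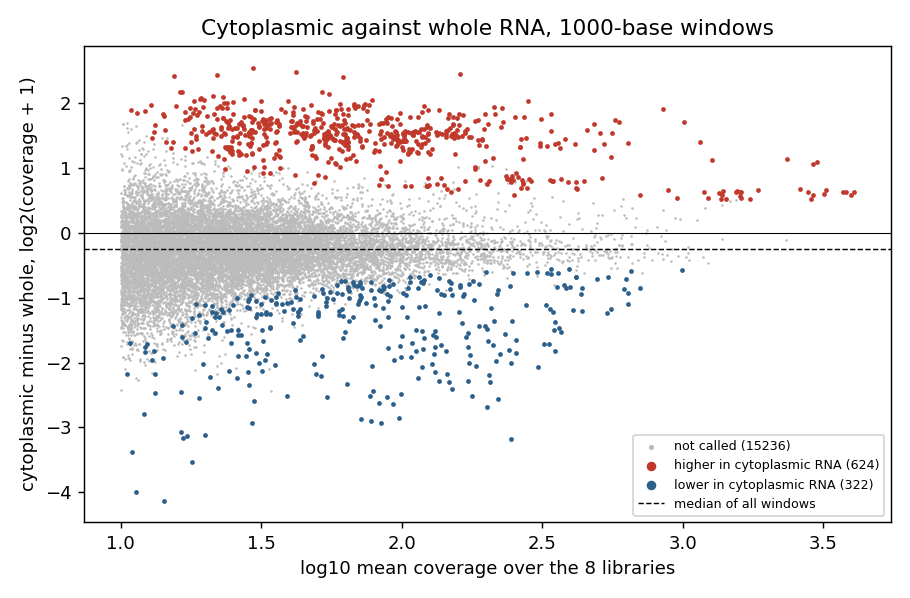
Difference of cytoplasmic minus whole RNA on the log2(coverage + 1) scale against the log10 mean coverage over the 8 libraries, 1 point per window. The 624 windows higher in cytoplasmic RNA lie at 0.51 to 2.55 and the 322 lower windows at -0.56 to -4.13, and the dashed line marks the median of all 16182 windows at -0.25.

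Nuclear-enriched RNA of the same series, which played no part in the comparison, held these windows at other levels. In the higher windows the median coverage was 71.7, 75.2, 124.2 and 111.1 in the cytoplasmic libraries, against 34.0, 36.9, 30.0 and 30.4 in the whole RNA libraries, and 13.9 to 16.4 in the 4 nuclear libraries. In the lower windows the median coverage was 50.6, 39.3, 41.3 and 41.0 in the cytoplasmic libraries, against 104.5 to 110.3 in whole RNA and 124.0 to 142.8 in nuclear RNA. Whole RNA thus lay between the 2 fractions in the median of either set. Over all tested windows the medians were 18.4 to 28.2 in cytoplasmic RNA, 24.7 to 27.8 in whole RNA and 23.1 to 25.3 in nuclear RNA.

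Chromosome X held 240 of the 624 windows that were higher in cytoplasmic RNA, 38.5% of them, with 8.75% of the windows tested. On X 240 of 1416 windows (16.9%) were higher and 28 (1.98%) were lower. On the 5 autosomes 384 of 14766 windows (2.60%) were higher, from 1.95% on chromosome I, 1.97% on III and 2.18% on II to 3.44% on IV and 3.90% on V. The lower windows made up 1.41% to 2.46% of the windows on each of the 6 chromosomes. The median difference of all tested windows was -0.16 on X and -0.27 to -0.23 on the autosomes. In N2 alone it was -0.13 on X and -0.49 to -0.42 on the autosomes. In hrde-1 alone it was -0.08 on X and -0.01 to 0.01 on the autosomes, so there X lay below them. Over both genotypes the upper quartile of the differences was 0.40 on X and 0.01 to 0.10 on the autosomes.

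**Figure D2:**
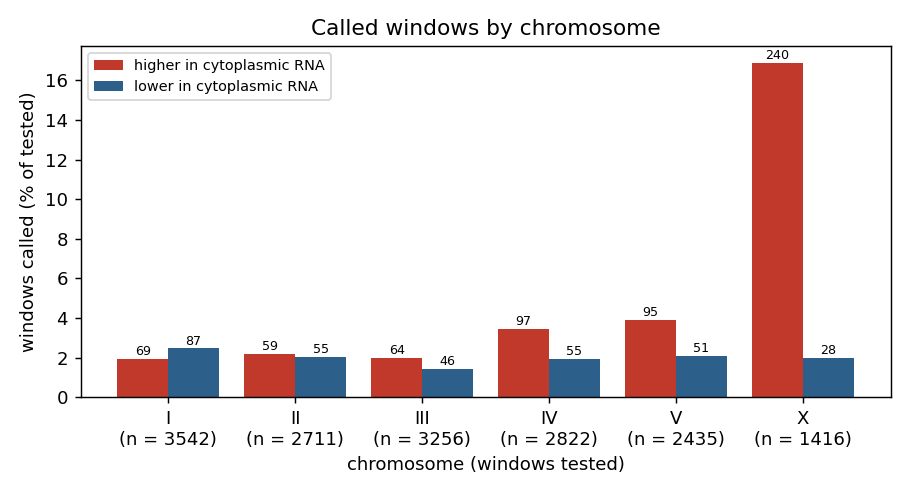
Windows called higher (red) and lower (blue) in cytoplasmic than in whole RNA, as a percentage of the windows tested on each chromosome, with the number called above each bar. The 16.9% of X windows that were higher stand beside 1.95% to 3.90% on the autosomes.

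X exceeded the autosomes in this share at each level of coverage. Among windows with a mean of 10 to 20, 1.94% of 671 X windows and 0.485% of 5778 autosomal windows were higher in cytoplasmic RNA. Between 20 and 50 the shares were 18.7% of 406 and 2.01% of 5822, between 50 and 100 they were 40.9% of 186 and 4.84% of 1922, and between 100 and 500 they were 42.6% of 122 and 11.1% of 1137. Above 500, 23 of 31 X windows (74.2%) and 20 of 107 autosomal windows (18.7%) were higher. The 240 higher windows of X had median coverages of 67.9, 74.0, 129.1 and 110.7 in the cytoplasmic libraries, against 32.4, 34.9, 28.5 and 27.5 in the whole RNA libraries. In the 4 nuclear libraries these medians were 11.1 to 14.5. The number of X windows called was 200 to 245 with any 1 library left out. It was 74 in the hrde-1 libraries alone and 176 in the N2 libraries alone, 140 in the generation 3 and 224 in the generation 4 libraries alone, 79 without both N2 cytoplasmic libraries and 32 in the fit without a filter on low windows.

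The share of a library's whole signal that fell on X was measured without any filter. It was 12.7%, 13.4%, 18.3% and 15.6% in the cytoplasmic libraries, against 12.0%, 11.7%, 11.4% and 11.2% in the whole RNA libraries. All 4 cytoplasmic libraries lay above all 4 whole RNA libraries. The means were 15.02% ± 2.53 in cytoplasmic RNA and 11.6% ± 0.330 in whole RNA (SD, n = 4 each), a difference of 3.47 percentage points. The difference was 1.26 points in hrde-1 and 5.69 points in N2, and whether it differs between the genotypes was not tested. An exact permutation test of fraction labels within genotype gave p = 0.0556, the smallest value its 36 arrangements allow, and 0.0873 after adjustment over 11 such shares, so the design cannot pass 0.05. Chromosome I had the opposite sign, with 18.1% ± 0.931 in cytoplasmic RNA and 19.96% ± 0.200 in whole RNA. So did chromosome II, with 14.1% ± 0.685 and 15.1% ± 0.0976 (both exact permutation p = 0.0556, adjusted 0.0873). In both, the 4 cytoplasmic values lay below the 4 whole RNA values. The shares of the chromosomes add up to a library's whole signal, so these differences are not independent of that on X. Chromosome IV had 19.4% ± 0.159 in cytoplasmic RNA and 19.1% ± 0.0874 in whole RNA, with no overlap and the same p. On chromosomes III and V the fractions overlapped, with 18.2% ± 0.639 and 19.0% ± 0.342 on III and 15.2% ± 0.243 and 15.3% ± 0.210 on V in cytoplasmic and whole RNA (exact permutation p = 0.111 and 0.333). The 3 fractions of the series can be set side by side: X took 12.1% to 12.6% of the signal in the 4 nuclear libraries. These shares lay above all 4 whole RNA libraries and below all 4 cytoplasmic libraries. In hrde-1 of generation 3 the nuclear share was 12.63% and the cytoplasmic share 12.71%.

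**Figure D3:**
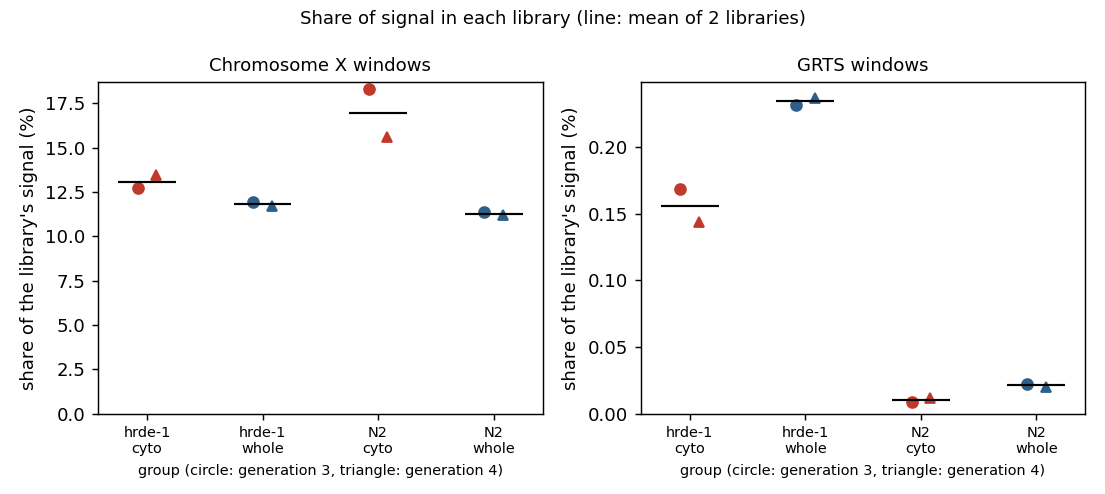
Share of each library's signal that fell on chromosome X (left) and in windows marked GRTS (right), in percent, with 1 point per library and a line at the mean of the 2 libraries of a group. On X the cytoplasmic libraries read 12.7% to 18.3% and the whole RNA libraries 11.2% to 12.0%, and in GRTS windows each cytoplasmic library lies below both whole RNA libraries of its genotype.

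The central part of the chromosomes, 50 percent of each by length, held 3.10% of 10414 windows higher and 2.16% lower, and the flanking arms held 5.22% of 5768 windows higher and 1.68% lower. On X, 15.2% of the central and 19.0% of the flanking windows were higher. On chromosome I the shares were 1.21% and 3.36% in centre and flanks, on II 1.45% and 3.46%, and on IV 2.20% and 5.67%. On III they were 2.02% and 1.86%, and on V 4.33% and 2.97%, so the autosomes did not share 1 direction. The centres took 65.4% ± 0.837 of the signal in cytoplasmic RNA and 65.9% ± 0.0969 in whole RNA (SD, n = 4 each, exact permutation p = 0.278).

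The strongest differences among well covered windows, those with a mean of at least 100, are given in every library. On chromosome I the window from 8781001 to 8782000 had coverages of 131, 207, 531 and 246 in cytoplasmic RNA, against 35.7, 39.7, 53.9 and 49.4 in whole RNA. Every cytoplasmic value exceeded every whole RNA value, and the mean was 6.25 times as high (log2 difference 2.44 ± 0.26 SE, limma, adjusted p = 3.34e-05). The window averaged 3.51 in nuclear RNA. On chromosome III from 7278001 to 7279000 the cytoplasmic values were 266, 461, 577 and 516, against 94.5, 141, 99.2 and 97.6 in whole RNA, and the nuclear mean was 9.48. The ratio of the means was 4.21 (log2 difference 2.03 ± 0.23 SE). On chromosome V from 12002001 to 12003000 they were 183, 149.8, 231 and 203, against 54.9, 43.4, 50.4 and 45.0 in whole RNA.

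A pair of adjacent windows on X, from 12889001 to 12891000, behaved alike. The first had 253, 286, 454 and 362 in cytoplasmic RNA, against 93.2, 97.9, 79.7 and 73.5 in whole RNA. The second had 239, 256, 584 and 386 in cytoplasmic RNA, against 85.0, 94.8, 90.2 and 88.0 in whole RNA. Their means were 3.94 and 4.10 times as high as in whole RNA, and in both the N2 cytoplasmic values lay above the hrde-1 cytoplasmic values. The most abundant of this set was on chromosome II from 13834001 to 13835000, with 830.4, 1223, 1722 and 1662 in cytoplasmic RNA, against 356, 394, 300.3 and 344 in whole RNA, a ratio of 3.90 (limma, adjusted p = 2.89e-05). Its nuclear mean was 53.2. The calls of all 6 windows held with any 1 library left out (highest adjusted p 0.00104). Without a filter on low windows, where 74 windows in all were higher and 119 lower, those on chromosomes I, II and III and the second on X were lost (highest adjusted p 0.0975).

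The opposite set was abundant windows that were low in cytoplasmic RNA. The window of chromosome I from 3001 to 4000 had 84.3, 62.3, 27.6 and 34.7 in cytoplasmic RNA, against 468, 454, 425 and 407 in whole RNA. It was 8.41 times as high in whole RNA (log2 difference -3.18 ± 0.22 SE, limma, adjusted p = 3.47e-06), and its nuclear mean of 721.7 was higher still. Another window of chromosome I, from 2514001 to 2515000, had 73.0, 55.4, 36.7 and 53.6 in cytoplasmic RNA, against 345, 354, 355 and 335 in whole RNA and 526 on average in nuclear RNA. On chromosome II from 8075001 to 8076000 the values were 69.3, 55.4, 59.7 and 69.4 in cytoplasmic RNA, against 379, 409, 374 and 352 in whole RNA, and this window had the lowest adjusted p of the comparison (3.14e-06). In each of these, every cytoplasmic value lay below every whole RNA value.

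The other windows of this set were alike in size. On chromosome III from 5653001 to 5654000 cytoplasmic RNA had 83.3, 39.3, 55.1 and 41.0 and whole RNA 326, 279, 316 and 289.5 on the same scale of coverage. On chromosome IV from 4880001 to 4881000 cytoplasmic RNA had 47.8, 47.3, 43.6 and 48.9 and whole RNA 298, 245, 250.0 and 228. On chromosome I from 2085001 to 2086000 cytoplasmic RNA had 101, 73.8, 55.1 and 53.6 and whole RNA 372, 322, 352 and 324. The whole RNA means of these 3 were 5.54, 5.45 and 4.84 times the cytoplasmic means, and their nuclear means of 414, 400.1 and 481 lay above both. All 6 lower windows kept their calls under every alternative tried (highest adjusted p 0.0400).

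**Figure D4:**
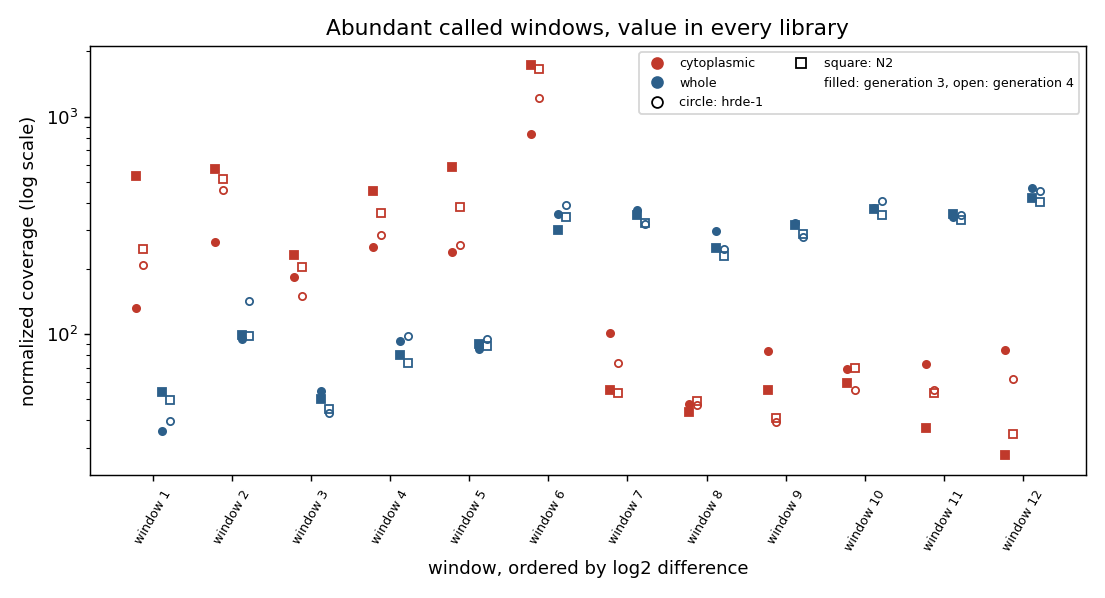
Normalized coverage on a log scale in the 4 cytoplasmic (red) and 4 whole RNA (blue) libraries for the 12 abundant windows, ordered by log2 difference from the window of chromosome I at 8781001 (window 1) to that at 3001 (window 12). Circles are hrde-1, squares are N2, filled symbols are generation 3 and open symbols generation 4; in each window the colours do not overlap.

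Below that level the differences were as large and rested on fewer reads. Among all called windows without overlap, the highest was on chromosome I from 7960001 to 7961000, with 26.4, 42.5, 96.1 and 42.3 in cytoplasmic RNA, against 5.92, 7.65, 5.27 and 10.5 in whole RNA. That is 67 and 23 read equivalents over the 4 libraries of each fraction (log2 difference 2.55 ± 0.37 SE, limma, adjusted p = 0.000429). On X from 11933001 to 11934000 cytoplasmic RNA had 60.3, 63.7, 68.8 and 85.1 and whole RNA 24.7, 18.7, 12.1 and 2.75, where N2 generation 4 was the lowest. On chromosome III from 11352001 to 11353000 cytoplasmic RNA had 89.6, 86.0, 145 and 98.5 and whole RNA 20.3, 16.9, 22.4 and 15.6, and this call held under every alternative tried. The rule named 4 more windows of this kind, on chromosome I from 10601001 and on X from 16272001, 1629001 and 1590001. They were 4.97 to 6.84 times as high in cytoplasmic RNA. Of these 7 windows, the fit without a filter kept 11352001 and 1590001, the fit of hrde-1 libraries alone lost 10601001, 1629001 and 1590001, and the fit of N2 libraries alone lost 7960001, 1629001 and 1590001.

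The lowest windows held hardly any cytoplasmic reads. On chromosome II from 11532001 to 11533000 the cytoplasmic libraries had 0.1, 0.33, 0.1 and 3.25, 0.1 being the floor of the table, against 33.0, 23.6, 27.6 and 25.6 in whole RNA. This is 1 read equivalent against 84, and scaled to depth whole RNA was 39.1 times as high with an exact 95% Poisson interval of 7.01 to 1543. Its nuclear mean was 72.7. On X from 12473001 to 12474000 there was 1 read equivalent in cytoplasmic RNA against 67 in whole RNA, a ratio with an interval of 5.59 to 1231. Both calls were lost without the N2 whole library of generation 3 (limma, adjusted p up to 0.262 with 1 library left out), and the X call without any 1 of the 4 whole RNA libraries. Both were also lost with the smaller pseudocount of 0.1 and in generation 3 alone, that on II without a filter and in N2 alone, and that on X in hrde-1 alone, in generation 4 alone and after thinning to equal depth (adjusted p up to 0.588).

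Most regions of called windows were single windows. When neighbouring calls of 1 direction were joined, allowing 1 uncalled window between them, there were 494 higher regions, of which 404 (81.8%) were single windows and 22 held 3 or more. There were 243 lower regions, of which 203 (83.5%) were single windows and 16 held 3 or more. The longest higher regions had 6 called windows and the longest lower region 18. The percentages are of regions, not of windows. Only 16182 of the 100257 windows were tested, and an untested window could not be called. How far this filter made regions short was not tested.

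The longest lower region lay on chromosome IV from 11974001 to 11993000, where 18 of 19 windows were called. Its mean coverage was 11.7, 8.47, 16.5 and 7.89 in cytoplasmic RNA, against 47.4, 36.7, 54.7 and 36.1 in whole RNA. In nuclear RNA it was 115, 67.1, 118 and 87.5. Cytoplasmic RNA averaged 11.1 ± 3.95, whole RNA 43.7 ± 8.96 and nuclear RNA 97.0 ± 24.2 (SD, n = 4 each), and no value of 1 fraction overlapped another. The median log2 difference of its called windows was -2.02. Beyond its ends the pattern differed by side. To the left, 12 kb from the centre, a window read 4.99 in cytoplasmic, 5.20 in whole and 4.85 in nuclear RNA on the log2(coverage + 1) scale. To the right, 12 kb from the centre, the window read 0.983 in cytoplasmic, 2.35 in whole and 3.24 in nuclear RNA, in the same order as inside the region. The window 10 kb to the left kept that order too, at 1.38, 4.14 and 4.61. No window of this region carried a mark of the table.

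**Figure D5:**
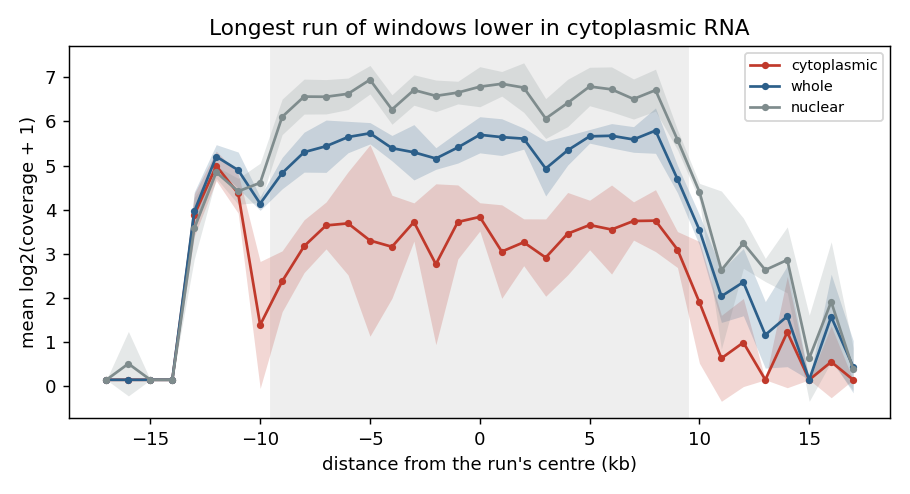
Mean log2(coverage + 1) of cytoplasmic, whole and nuclear RNA (4 libraries each, shading ± 1 SD) in consecutive 1000-base windows against the distance in kb from the centre of the longest lower region, which is shaded grey. Cytoplasmic RNA lies below whole RNA and nuclear RNA above it throughout the region, and this order continues at 10 kb on the left and at 10 to 14 kb on the right, while the 3 lines lie close together at 11 to 13 kb on the left.

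The other long lower regions were shorter and differed in level. On chromosome I from 14856001 to 14863000, 6 of 7 windows were called, with a mean of 224 ± 67.1 in cytoplasmic RNA and 390.1 ± 64.1 in whole RNA. On X from 12469001 to 12474000, 5 of 5 windows were called, with 2.34, 3.55, 7.89 and 0.1 in cytoplasmic RNA, against 34.6, 20.2, 36.1 and 17.6 in whole RNA. This is 22 read equivalents against 408. On chromosome I from 7260001 to 7265000, 4 of 5 windows were called, with 6.08, 2.86, 9.26 and 5.77 in cytoplasmic RNA and 37.3, 25.4, 39.8 and 20.8 in whole RNA. In both of these regions whole RNA and nuclear RNA had like means, 27.1 ± 9.61 and 24.7 ± 6.90 on X and 30.8 ± 9.18 and 26.1 ± 7.54 on chromosome I.

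Several single calls inside these 2 regions were lost when 1 library was left out. On X the windows from 12469001, 12470001 and 12471001 held 2, 6 and 4 cytoplasmic read equivalents, and each lost its call without either whole RNA library of generation 3 (limma, adjusted p up to 0.231). The first was also lost without either whole RNA library of generation 4, and the first and second without the hrde-1 cytoplasmic library of generation 4. On chromosome I the window from 7260001 lost its call without any 1 of the 4 whole RNA libraries or the hrde-1 cytoplasmic library of generation 4 (0.125) and that from 7264001 without the N2 whole library of generation 3 (0.0616). All 5 of these windows also lost their call without a filter and in N2 alone, and all but 7264001 with the smaller pseudocount (adjusted p up to 0.512). Those from 12469001 and 12470001 were lost after median scaling and after thinning, 12469001 in hrde-1 alone and in either generation alone, and 12471001 and 7264001 in generation 4 alone.

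The most abundant windows were moderately higher in cytoplasmic RNA. The highest of all, on chromosome IV from 8264001 to 8265000, had 4232, 4377, 6239 and 5006 in cytoplasmic RNA, against 3069, 3232, 3012 and 3376 in whole RNA. It lay inside a region of 6 called windows from 8261001 to 8267000 whose mean was 3887 ± 749 in cytoplasmic RNA and 2494 ± 84.8 in whole RNA (SD, n = 4 each). On X the window from 5101001 to 5102000 had 3595, 3188, 5174 and 3942 in cytoplasmic RNA, against 2508, 2465, 2420 and 2548 in whole RNA. In the region around it, from 5101001 to 5107000, all 6 windows were called with means of 3071 ± 573 and 2007 ± 55.7, and on X from 3403001 to 3409000 all 6 were called with 1757 ± 406 and 1146 ± 80.3. The 6 windows of highest mean, all in the first 2 of these regions, were 1.52 to 1.60 times as high in cytoplasmic RNA (limma, adjusted p 0.00520 to 0.0119). Median scaling and quantile normalization ended all 6 of these calls, with the sign turned in 5 of them after quantile normalization, and so did a fit of either genotype alone, of all windows without a filter, or without both N2 cytoplasmic libraries. Those from 8262001, 8265001, 5101001 and 5105001 were also lost without the N2 whole library of generation 4, all of these but 5101001 without that of generation 3, and 8265001 without the hrde-1 whole library of generation 3 (adjusted p up to 0.0833 with 1 library left out). The nuclear means of the 3 regions, 2676 ± 115.4, 2197 ± 119.8 and 1261 ± 18.9, lay above those of whole RNA and below those of cytoplasmic RNA.

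Higher regions of moderate level were seen as well. On chromosome V from 6172001 to 6177000 all 5 windows were called, with 30.7, 44.7, 70.6 and 23.8 in cytoplasmic RNA and 15.4, 10.6, 13.1 and 13.7 in whole RNA. Here nuclear RNA, at 26.0 ± 11.3, lay above whole RNA, at 13.2 ± 2.01.

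The highest windows took more of the signal in each cytoplasmic library than in any whole RNA library. The 10 highest windows of a library took 3.67%, 4.21%, 5.95% and 5.18% of its signal in cytoplasmic RNA, against 2.90%, 2.81%, 2.77% and 2.76% in whole RNA. The fractions did not overlap (4.75% ± 1.01 and 2.81% ± 0.0651, SD, n = 4 each, exact permutation p = 0.0556). At the depth of the shallowest library, 191255 read equivalents, the expected share of the 100257 windows with a read was 27.4%, 27.2%, 25.7% and 26.0% in cytoplasmic RNA, against 30.6%, 31.0%, 29.6% and 29.6% in whole RNA. Here too the fractions did not overlap (exact permutation p = 0.0556, adjusted over 2 measures 0.111). The 4 nuclear libraries had 34.4% to 35.5% on that scale. The fewest windows that hold 50 percent of the signal numbered 2341, 2311, 1218 and 1649 in cytoplasmic RNA, against 2334, 2614, 2298 and 2567 in whole RNA, and here the hrde-1 cytoplasmic values lay within the range of whole RNA (exact permutation p = 0.111).

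The table marks windows as GRTS or GRH, which the sources used here do not explain. In this field the names stand for transcriptional silencing and for heterochromatin that depend on germline nuclear RNAi. The marks may have been chosen on these libraries, so a difference between genotypes in them is not independent evidence. Of 191 GRTS windows 21 passed the minimum of 10, and of 215 GRH windows 40 did, with 5 windows in both sets. They passed partly through their hrde-1 values and are not all members of either set. Of the 21 GRTS windows 12 were at the floor in all 4 N2 libraries, and of the 40 GRH windows 2 were, so in these only the hrde-1 libraries could differ. None of these 56 windows was called in either direction (limma), where the background is 5.85%; nothing is read from this, given how the windows passed. The median difference was -0.23 over the 21 GRTS windows (interquartile range -0.89 to 0.03) and -0.35 over the 40 GRH windows (-0.58 to -0.10), against -0.25 over all windows (-0.54 to 0.05). The median within hrde-1 was -0.07 for GRTS windows and 0.13 for GRH windows. Within N2 it was -0.60 for GRH windows, and for GRTS windows the floor fixed it at 0.00.

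Over all 191 GRTS windows, including those below the minimum, the share of signal was lower in cytoplasmic RNA in each genotype. Among hrde-1 libraries it was 0.168% and 0.144% in cytoplasmic RNA, against 0.231% and 0.237% in whole RNA. Among N2 libraries it was 0.00888% and 0.0121% in cytoplasmic RNA, against 0.0224% and 0.0201% in whole RNA. Within each genotype the fractions did not overlap, and the exact permutation p of 0.0556 is the smallest the design allows. These shares rest on 875, 518, 13 and 26 read equivalents in the cytoplasmic libraries, against 1538, 1792, 134 and 148 in the whole RNA libraries. In nuclear RNA the shares were 0.552%, 0.549%, 0.0425% and 0.0512%. Over both genotypes the mean share differed by -0.0446 percentage points. It differed by -0.00683 points in GRTS windows with a mean of at least 10 (exact permutation p = 0.167). With 1 library left out, the difference of plain means over all 191 windows ranged from -0.0804 to -0.00807 points. Each omission also left the genotypes unequal in number within that fraction, and hrde-1 shares were far above N2 shares. This range therefore mixes the genotype balance with the influence of a library. Single windows went both ways in hrde-1. On chromosome V from 17570001 cytoplasmic RNA had 144 and 92.2 and whole RNA 72.6 and 75.6, and on IV from 915001 they had 7.58 and 13.9 and 38.4 and 50.8. For the 215 GRH windows the shares were 0.195%, 0.181%, 0.0679% and 0.0842% in cytoplasmic RNA, against 0.220%, 0.234%, 0.119% and 0.114% in whole RNA (exact permutation p = 0.0556). The mean GRH share differed by -0.0393 percentage points. In GRH windows with a mean of at least 10 it differed by -0.0115 points (exact permutation p = 0.222).

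Among the marked windows that passed, the 4 with the lowest p had lower means in cytoplasmic RNA and missed the threshold in the fit of 8 libraries. The GRH window of chromosome IV from 8397001 to 8398000 had 103, 41.6, 4.68 and 3.25 in cytoplasmic RNA, against 145, 141, 9.87 and 8.52 in whole RNA (log2 difference -1.08 ± 0.31 SE, limma, adjusted p = 0.0538). Within each genotype the fractions did not overlap, while the genotypes lay far apart. In N2 this rests on 1 and 1 read equivalents in cytoplasmic RNA, against 7 and 7 in whole RNA. The GRH window of chromosome II from 13186001 to 13187000 had 31.9, 27.7, 41.3 and 37.9 in cytoplasmic RNA, against 67.2, 45.9, 62.9 and 55.5 in whole RNA (adjusted p = 0.0916). The others, on chromosome II from 7083001 and IV from 10356001, had adjusted p of 0.123 and 0.140 by limma, with 10 and 17 cytoplasmic read equivalents. All 4 passed the threshold when the 12 libraries were fitted together (limma, adjusted p 0.0149 to 0.0427). The window from 8397001 also passed in generation 4 alone, with the minimum of 10 read equivalents, and without the N2 or the hrde-1 cytoplasmic library of generation 3, that from 10356001 in generation 4 alone and without the N2 one, and that from 7083001 with the larger pseudocount of 10.

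The higher windows had a larger median difference between fractions in N2 than in hrde-1. Their median difference was 0.99 in hrde-1 and 1.99 in N2, and 598 of the 624 (95.8%) differed more in N2. The lower windows differed by medians of -1.21 in hrde-1 and -1.37 in N2, and 194 of the 322 (60.2%) differed more in N2. Over all windows the medians were -0.00 in hrde-1 and -0.44 in N2, and in 11403 of the 16182 the difference was more positive in hrde-1. The depth moved with this, since the N2 cytoplasmic libraries were the shallowest and differed most from each other, and its part in the result was not tested. A test of the difference between genotypes at each window (interaction term, limma, 4 residual degrees of freedom) called 0 of 16182 windows (0.00%), with a lowest adjusted p of 0.317 and 1843 windows at an unadjusted p under 0.05. Among the 624 higher windows 343 had an unadjusted interaction p under 0.05, and among the 322 lower windows 18 did. These windows were called on the same libraries, so both counts are description only. In 80 windows the difference was called higher and in 1 lower in hrde-1 than in N2 without the N2 cytoplasmic library of generation 3, and in 1542 and 162 without that of generation 4, where the remaining N2 cytoplasmic library is assumed to vary like the other groups.

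The 2 windows of lowest interaction p were both on chromosome III. From 9830001 to 9831000 coverage was 22.5, 39.3 and, at the floor, 0.1 and 0.1 in cytoplasmic RNA, against 12.4, 22.4, 22.4 and 21.8 in whole RNA. From 12883001 to 12884000 it was 69.3, 78.4, 13.8 and 19.0 in cytoplasmic RNA, against 64.4, 52.1, 67.1 and 71.1 in whole RNA. In both, the low values were those of N2 cytoplasmic RNA, and neither passed the adjustment (limma, adjusted p = 0.317 for each).

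The number of lower windows moved more with the choice of libraries than the number of higher windows. The 624 higher windows became 481 to 669 with any 1 library left out. The 322 lower windows became 582, 192, 725 and 297 when 1 cytoplasmic library was left out, in the order given, and 199, 205, 154 and 185 when 1 whole RNA library was. Within generations, 318 windows were higher and 128 lower in generation 3, and 566 were higher and 658 lower in generation 4. Within genotypes, 226 were higher and 179 lower in hrde-1, and 436 were higher and 123 lower in N2. Leaving out windows with fewer than 10 read equivalents on average in either fraction kept 7129 windows, of which 546 were higher and 323 lower.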

How the data were processed

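The deposited file is a table of normalized coverage, a signal in windows of 1000 bases that the authors scaled to near-equal sums (839240 to 983821 per library) with a floor of 0.1, per the file headers and its values. Bowtie 0.12.7 was used, per the submitters' processing notes; the build, strand, counting and treatment of reads with several matches are not stated by any source used here. Values are close to shares of a library, not amounts of RNA in a compartment. The log2 values used here were computed from the deposited coverage. The table ends at 20920000 on chromosome V, before the last annotated gene of the WBcel235 annotation, at 20922732. On chromosome I it ends at 15060000, before the last gene at 15072426. On chromosome II it ends at 15280000, beyond the last gene at 15279420, and on III, IV and X it also ends beyond the last gene. Whether the build differs from WBcel235 is not known from this, so no annotation or sequence was used. The marks of the table (+ or -) are other deposited columns, per the file headers.

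Windows with a mean of at least 10 over the 8 libraries were fitted with limma 3.58.1 in R 4.3.3 (lmFit, eBayes with trend) on log2(coverage + 1), with fraction and genotype as terms and 5 residual degrees of freedom; figures used Python 3.11.15 and matplotlib 3.10.9. This scale understates the change of low windows. SDs over 4 libraries of a fraction cover both genotypes. The p-values measure the spread between libraries, and the libraries of a group came from different generations. That spread includes any difference between generations and may be partly technical. The labels do not state that libraries of a group came from separate cultures, so their independence is not known. Replicates differed by more than counting noise (chi-square per degree of freedom 1.18 to 1.45). A read equivalent is the coverage above the floor divided by the commonest step of the column; 80.0% to 90.0% of values below 40 lie within 0.0065 of a whole multiple. The values are coverage, so no count model was used. Shares of signal were tested by permuting fraction labels within genotype. Named windows were the 8 highest and 8 lowest log2 differences among called windows without overlap between fractions, the 6 of each with a mean of at least 100, the 4 longest regions each way, the 6 most abundant windows, the 2 windows of lowest interaction p and the 4 marked windows of lowest p, since none was called. The comparison, lists and rules were chosen with earlier results of these data known. Alternatives were 2 pseudocounts, 3 filters, 2 scalings, a replicate block, all 12 libraries in 1 fit, thinning, single genotypes and each library left out, with generations alone, both N2 cytoplasmic libraries left out and a read minimum added after seeing the data.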

Additional observations from a re-analysis of the deposited data

Results flagged for a closer look

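The last 15 windows of chromosome I in the table were set aside because ribosomal DNA of this species lies at that end, but the table stops at 15060000 and whether these windows hold any is not known. Their share of signal moved in opposite directions in the genotypes, with 0.0336% and 0.0384% in cytoplasmic against 0.0333% and 0.0301% in whole RNA of hrde-1, and 0.0255% and 0.0294% in cytoplasmic against 0.0300% and 0.0349% in whole RNA of N2. The difference between the genotypes was not tested, and over both it was -0.000339 percentage points (exact permutation p = 0.833).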

How the results depend on the processing

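The comparison kept both directions under each alternative run. No filter gave 74 higher and 119 lower windows. For lower windows, against 322, a pseudocount 10 times larger gave 496, median scaling 188, all 12 libraries in 1 fit 833 and thinning to equal depth 181. The fits of N2 and hrde-1 alone gave 123 and 179 lower, and hrde-1 alone 226 higher. Among the settings chosen after seeing the data, generation 3 alone gave 318 higher and 128 lower, generation 4 alone 658 lower, and leaving out both N2 cytoplasmic libraries 235 higher and 213 lower. With 1 library left out, higher windows ranged from 481 to 669 and lower windows from 154 to 725. The interaction, with 0 calls, gave 545 higher and 628 lower without a filter, and with 1 library left out 0 to 1542 higher and 0 to 162 lower. Windows higher on X, 240, were 156 of the 339 that had a mean of at least 50, 32 of the same 1416 in the fit without a filter, 74 in hrde-1 alone, 140 in generation 3 alone and 79 without both N2 cytoplasmic libraries, and 200 to 245 with 1 library left out. The cause of these shifts was not tested.

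The fit of 8 libraries did not pair them by generation. The deviations of cytoplasmic and whole libraries of a generation correlated at 0.0545 in hrde-1 and 0.103 in N2. Such values cannot show that generations share nothing, since noise of single libraries lowers them too. In the lower region of chromosome I from 14856001, generation 3 exceeded generation 4 in both fractions and both genotypes. On chromosome V from 6172001 the cytoplasmic means of generations 3 and 4 were 30.7 and 44.7 in hrde-1 and 70.6 and 23.8 in N2. The fit with this replicate block gave 604 higher and 337 lower windows, 237 higher on X, and 0 interaction calls. After quantile normalization the differences of the windows on IV from 8262001, 8263001 and 8265001 were -0.0373, -0.0495 and -0.0341, and on X from 5101001 and 5105001 -0.0023 and -0.0626. Of the 32 named windows called, 9 kept their call in every setting and 21 with any 1 library left out. With 1 library left out, the difference in the share of chromosome V ranged from -0.170 to 0.0163 percentage points. That of the last 15 windows of chromosome I ranged from -0.00256 to 0.00174. These are differences of plain means, so leaving out a library also made the genotypes unequal in number in that fraction. Depth limits windows near the minimum, where 1 read in the shallowest library is worth 4.58.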
